A study of Mus musculus with 18 samples.

Results

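Genes that mark Kupffer cells, the resident macrophages of the liver, were followed in whole-liver RNA of mice with error-prone ribosomes. They are 10 of the 22524 genes listed, the markers *Clec4f*, *Vsig4*, *Cd5l*, *Marco*, *Csf1r*, *Cd68*, *Adgre1*, *C1qa*, *C1qb* and *C1qc*, found by matching their symbols to the Ensembl identifiers of the deposited tables, and all 10 were among the 13353 genes that passed the filter on low counts. One library per mouse was made from the liver of 10 A226Y mice and 8 WT mice, all female, on a C57BL/6 background and 15 months old. The A226Y mice were heterozygous for a knock-in allele of *Rps2*, a protein of the small ribosomal subunit, that holds a mutated exon 3 behind a *loxP*-flanked stop cassette in exon 1, and a CMV-Cre transgene active in all tissues was used to excise the cassette. The allele was made in 129/Sv embryonic stem cells and backcrossed. Excision was incomplete according to the methods, so the liver of an A226Y mouse is a mixture of cells that express the A226Y allele and cells in which the stop cassette still silences that copy of *Rps2*. The controls were wild-type mice that also carried CMV-Cre, so Cre was shared by both groups. The extent of excision in Kupffer cells is not given in the sources used here.

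Kupffer cells sit in the liver sinusoids, where they take up particles, microbes, old red blood cells and complement-coated material from the portal blood. They are seeded before birth, renew themselves locally and depend on signalling through the receptor CSF1R, and identity genes such as *Clec4f* in mice set them apart from macrophages recruited from blood monocytes. C1q, which starts the classical complement pathway, is assembled from A, B and C chains encoded by neighbouring genes and is made by macrophages, whereas most other complement proteins are made by hepatocytes.

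Total counts ranged from 23850565 to 62126131 per A226Y mouse and from 25869192 to 34918732 per WT mouse, and each of the 10 markers had between 158 and 12721 counts in a mouse, so that the spread between mice and not counting error set the precision. Levels are given as CPM, the counts of a gene scaled to the size of its library with TMM. *Rps2*, the targeted gene, was 68.6 ± 13.3 CPM (SD, n = 10) in A226Y against 114.1 ± 13 CPM (SD, n = 8) in WT, with all 10 A226Y mice below every WT mouse (log2 fold change −0.73, standard error 0.11, edgeR adjusted p = 0.000772). A pair of livers stood apart in the markers described here. A226Y mouse 29 had the highest level of its genotype in 9 of the 10 markers, and WT mouse 33 had the highest level of its genotype in 9 and the lowest of all 18 mice in 1, *Marco*. Mouse 29 also had the lowest *Alb* of the 18 mice, at 48039 CPM against 66776.8 to 144015.5 CPM in the others, and the highest level of the acute-phase genes *Saa1* (6102 CPM, others 10.5 to 556.0) and *Lcn2* (681.6 CPM, others 9.13 to 368.1), genes that were chosen after their values were seen. Its *Rps2*, at the same time, was within the A226Y range. Results are therefore given with and without these animals. Leaving out the highest animal of a group lowers that group's mean and narrows its spread by construction. Mice 29 and 33 were singled out for their values of these same markers and not for a label, so calls without them are descriptions.

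The markers were lower on average in A226Y liver for 9 of 10 genes, and the middle of the 10 log2 fold changes (A226Y against WT) was −0.43, where that of all tested genes was −0.004. One marker, *Clec4f*, passed the threshold of 0.05 on the adjusted p of edgeR's quasi-likelihood test, and it was lower; none was called higher. Among all tested genes 7.03% were called lower and 7.27% higher, so 1 call among 10 is close to the background. At an unadjusted p under 0.05 the same test gave 4 of 10 markers lower (*Clec4f*, *Vsig4*, *Csf1r* and *Cd68*), where 14.7% of all genes were lower. A two-sided exact permutation test of log2 CPM, which took in all 43758 ways to divide 18 mice into 10 and 8, gave 7 of 10 markers lower at an unadjusted p under 0.05, against 14.5% of all genes. With scaling by library size only it gave 4 of 10 lower, against 9.74% of all genes. All markers but *Marco* varied together across mice, as described below, so these are not counts of independent genes. In bulk liver, fewer Kupffer cells and less RNA of these genes per cell cannot be told apart.

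**Figure D1:**
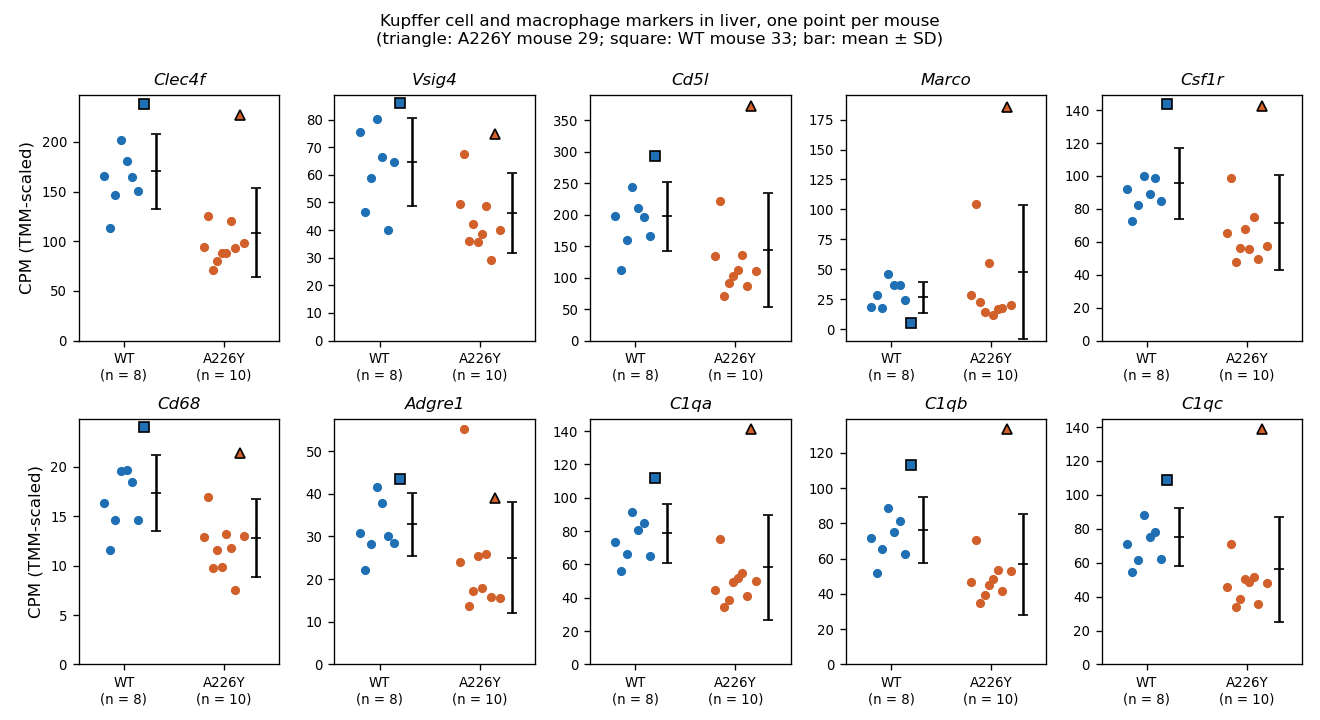
Level of each of the 10 markers in each liver, in CPM after TMM scaling, on linear axes; points are mice (8 WT, 10 A226Y), bars are mean ± SD, the triangle is A226Y mouse 29 and the square is WT mouse 33. Most A226Y points lie below most WT points for each gene except *Marco*, and the triangle lies at 227.2 CPM for *Clec4f*, where the next A226Y mouse is at 125.3 CPM.

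*Clec4f* (ENSMUSG00000014542, GRCm38 chr6:83644542-83656187, minus strand) encodes a C-type lectin found almost only on Kupffer cells in mice. Its level was 71.3, 93.7 and 227.2 CPM (lowest, median and highest of 10) in A226Y liver, and 113.3, 165.5 and 238.0 CPM (of 8) in WT liver. Of the 10 A226Y mice, 7 lay below every WT mouse, and 9 below the WT mean, while mouse 29 lay among the highest WT mice. The mean was 108.7 ± 44.8 CPM (SD, n = 10) in A226Y against 170.3 ± 37.8 CPM (SD, n = 8) in WT. The fold change on the log2 scale was −0.65 with a standard error of 0.19 (edgeR adjusted p = 0.0261), and the exact permutation p was 0.00382. Without mouse 29 the A226Y mean was 95.5 ± 17.6 CPM (SD, n = 9) and the log2 fold change −0.83 (adjusted p = 0.000971 from edgeR). Without WT mouse 33 it was −0.56 (adjusted p = 0.0498), and without WT mouse 14 the call was lost (−0.61, adjusted p = 0.0577).

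*Vsig4* (ENSMUSG00000044206, chrX:96247203-96293438, minus strand) encodes the complement receptor CRIg, with which Kupffer cells bind C3 fragments on particles in the blood. Levels of 29.1, 41.1 and 74.9 CPM (lowest, median and highest) were found in A226Y, and of 40.2, 65.5 and 85.9 CPM in WT. The groups overlapped, with 5 A226Y mice below every WT mouse. The log2 fold change was −0.49 (standard error 0.17, edgeR adjusted p = 0.065), with an exact permutation p of 0.0215.

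*Cd5l* (ENSMUSG00000015854, chr3:87357881-87371073, plus strand) encodes a secreted macrophage protein also known as AIM, the apoptosis inhibitor of macrophages. It was the marker with the highest level per length of exon in WT liver. A226Y mice had 70.7, 111.2 and 373.8 CPM (lowest, median and highest) and WT mice 112.3, 197.3 and 292.9 CPM. Of the A226Y mice, 5 lay below every WT mouse and 1, mouse 29, above every WT mouse. With all 18 mice the log2 fold change was −0.46 (standard error 0.27, edgeR adjusted p = 0.266) and the exact permutation p was 0.0553. Without mouse 29 it was −0.74 (edgeR adjusted p = 0.0147).

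The general macrophage markers had the same direction. *Csf1r* (ENSMUSG00000024621) encodes the receptor for CSF1 and IL-34, on which macrophage survival depends. It had 47.9, 61.6 and 142.3 CPM (lowest, median and highest) in A226Y and 72.6, 90.8 and 143.9 CPM in WT, and 7 A226Y mice were below every WT mouse (log2 fold change −0.42, standard error 0.19, edgeR adjusted p = 0.141). Exons of *Csf1r* overlap exons of *Hmgxb3* on the opposite strand, which had at most 942 counts in a mouse, and as the use of strand is not given in the sources used here the level of *Csf1r* is uncertain to that extent. *Cd68* (ENSMUSG00000018774, chr11:69664213-69666153, minus strand), a lysosomal glycoprotein of phagocytes, had 7.56, 12.4 and 21.4 CPM in A226Y and 11.6, 17.4 and 24 CPM in WT. In 9 A226Y mice *Cd68* was below the WT mean, in 3 of them below every WT mouse (log2 fold change −0.44, standard error 0.17, edgeR adjusted p = 0.0786). *Adgre1* (ENSMUSG00000004730, chr17:57358691-57483527, plus strand) encodes F4/80, the adhesion receptor by which mouse macrophages are commonly stained. Its A226Y values of 13.7, 21 and 55.3 CPM spanned the WT values of 22.1, 30.3 and 43.5 CPM, and here the highest animal was A226Y mouse 5 and not mouse 29 (log2 fold change −0.40, standard error 0.23, edgeR adjusted p = 0.265). Exact permutation p-values were 0.0299 for *Csf1r*, 0.0225 for *Cd68* and 0.0646 for *Adgre1*.

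The genes of the C1q chains had near-equal levels in CPM. *C1qb* (ENSMUSG00000036905, chr4:136880129-136886187), *C1qc* (ENSMUSG00000036896, chr4:136889804-136893065) and *C1qa* (ENSMUSG00000036887, chr4:136895917-136898803) lie side by side on the minus strand with no other annotated gene between them. *C1qa* had 34.4, 49.9 and 141.3 CPM (lowest, median and highest) in A226Y and 56.0, 77.2 and 111.8 CPM in WT. *C1qb* had 34.6, 47.7 and 133.7 CPM in A226Y and 51.6, 73.4 and 113.0 CPM in WT. *C1qc* had 33.7, 48.4 and 138.9 CPM in A226Y and 54.8, 73.3 and 108.7 CPM in WT. In A226Y, 8 mice for *C1qa*, 6 for *C1qb* and 8 for *C1qc* were below every WT mouse, while mouse 29 was above every WT mouse in all 3 genes. The log2 fold changes were −0.44 (standard error 0.22), −0.42 (0.22) and −0.42 (0.23) for *C1qa*, *C1qb* and *C1qc*, with edgeR adjusted p-values of 0.196, 0.196 and 0.225 and exact permutation p-values of 0.0344, 0.0402 and 0.0408.

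*Marco* (ENSMUSG00000026390, chr1:120474538-120505024, minus strand), a collagen-like scavenger receptor for bacteria and particles, did not follow the other 9. It had 11.9, 21.5 and 185.4 CPM (lowest, median and highest) in A226Y and 5.53, 26.9 and 45.9 CPM in WT. A226Y mice 5, 15 and 29 were above every WT mouse, with 104.5, 55.1 and 185.4 CPM, whereas the other 7 had at most 29 CPM and lay within the WT range. The A226Y mean was therefore the higher one (47.9 ± 55.9 CPM, SD, n = 10, against 26.8 ± 13 CPM, SD, n = 8) and the A226Y median the lower one. The log2 fold change of 0.83 (standard error 0.52) did not pass the test (edgeR adjusted p = 0.294, exact permutation p = 0.469), and without mouse 29 it was 0.27 (edgeR adjusted p = 0.686). Between WT mice *Marco* had a coefficient of variation of 48.3%, against 22.2% to 27.8% for the other 9 markers.

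**Figure D2:**
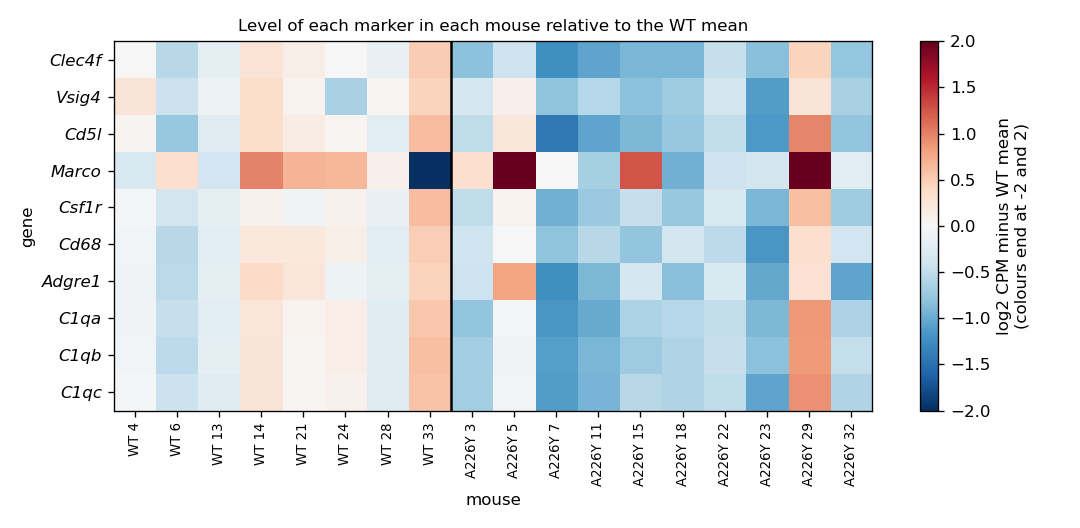
Log2 CPM of each marker (rows) in each mouse (columns, 8 WT then 10 A226Y) minus the WT mean of that marker, in log2 units; red is above and blue below the WT mean, and colours end at −2 and 2. The rows of the 9 markers other than *Marco* share their light and dark columns, with A226Y mouse 29 red throughout and A226Y mouse 7 blue in each of the 9.

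How many markers were called depended on A226Y mouse 29. Its levels were 1.66 times (*Adgre1*) to 5.68 times (*Marco*) the mean of the other A226Y mice, with 2.38 times for *Clec4f* and 2.89 times for *C1qa*. Without this mouse, 8 of the 10 markers were called lower, against 10.3% of all genes, and the 10 had a median of −0.63. These 8 were *Clec4f*, *Vsig4* (log2 fold change −0.59, edgeR adjusted p = 0.0148), *Cd5l*, *Csf1r* (−0.58, adjusted p = 0.00842), *Cd68* (−0.56, adjusted p = 0.0128), *C1qa* (−0.69, adjusted p = 0.00388), *C1qb* (−0.66, adjusted p = 0.00454) and *C1qc* (−0.68, adjusted p = 0.00406). *Adgre1* (adjusted p = 0.138) and *Marco* were not called. The highest A226Y mouse for *Adgre1* was mouse 5, and without that mouse in place of mouse 29 *Adgre1* was called lower (−0.60, edgeR adjusted p = 0.0362). In the exact permutation test without mouse 29, 9 of the 10 markers were lower at an unadjusted p under 0.05, all but *Marco*, against 16.8% of all genes. WT mouse 33 was then left out as well, so that each group lost the animal that most often was its highest. The same number of 8 markers was called lower, against 9.13% of all genes. Log2 fold changes were −0.75 for *Clec4f*, −0.60 for *C1qa* and −0.42 for *Adgre1* (adjusted p = 0.00161, 0.00664 and 0.226 from edgeR). Both mice were picked by the levels of these markers and not by those of all genes, so neither count of 8 is a test of the markers. Even without mouse 29 no marker had groups that did not overlap. Without WT mouse 33 alone, 1 marker was called lower, against 6.51% of all genes, and the median of the 10 was −0.34. In that fit each marker other than *Marco* had a less negative log2 fold change than with all mice. *Csf1r* was at −0.31 (edgeR adjusted p = 0.268) and *C1qa* at −0.35 (edgeR adjusted p = 0.318).

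With 4 surrogate variables, estimated from the counts, as covariates in edgeR, *Clec4f* was still called lower (log2 fold change −0.39, adjusted p = 0.0205) and no other marker was, so that 1 of 10 was called lower against 1.24% of all genes. The median over the 10 markers was then −0.19, *C1qa* was at −0.21 (adjusted p = 0.165) and *Adgre1* turned to 0.04 (adjusted p = 0.915).

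**Figure D3:**
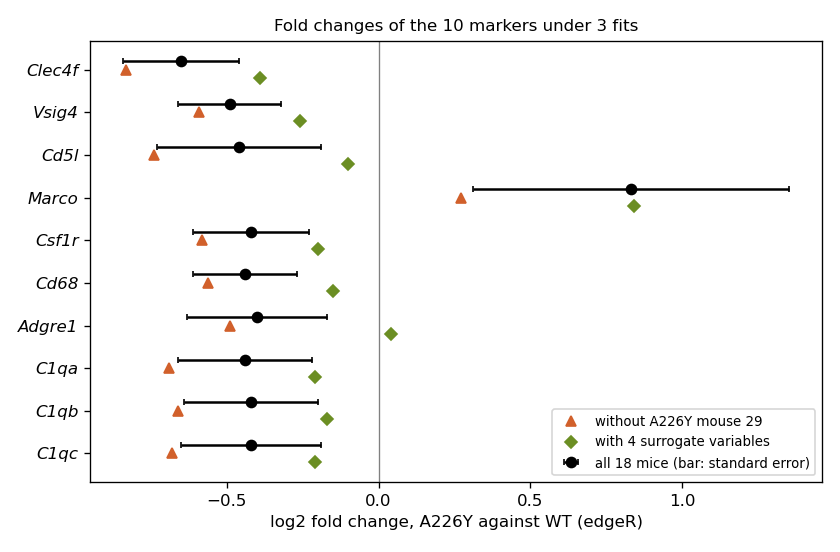
Log2 fold change of A226Y against WT for each marker from edgeR; black circles with standard error bars are all 18 mice, triangles are without A226Y mouse 29 and diamonds are with 4 surrogate variables. The triangles of the 9 markers other than *Marco* lie to the left of the circles and the diamonds to the right, from −0.65 to −0.83 and −0.39 for *Clec4f*.

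Mice differed in these markers as a group of genes. WT mouse 6 had the lowest WT level of 8 of the 10 markers, and A226Y mouse 7 had the lowest level of all 18 mice in 7. Summed over the 10 markers, A226Y livers had from 375.2 to 1477.9 CPM (median 517.4) and WT livers from 569.9 to 1167.3 CPM (median 822.0); without mouse 29 the highest A226Y sum was 907.6 CPM, in mouse 5. To ask whether the genes varied together within a genotype, log2 CPM was centred on the mean of each genotype and correlated over the 18 mice for the 45 pairs of markers, with 100000 permutations within genotypes and Benjamini-Hochberg adjustment over the pairs. Among the 36 pairs without *Marco*, Pearson's r was 0.72 to 0.99 (median 0.88) and Spearman's rho 0.60 to 0.97 (median 0.87), and all 36 had an adjusted permutation p of at most 0.00126 by r and 0.0128 by rho. The C1q chains were the tightest, with r = 0.99 and rho = 0.97 for *C1qa* and *C1qb* (permutation p = 1e-05 for both, the smallest 100000 permutations can give, adjusted p = 2.5e-05 and 2.65e-05) and r = 0.98 without the 2 mice farthest from the median of *C1qa*. *Clec4f* and *C1qb*, which lie on different chromosomes, had r = 0.97 and rho = 0.93, and r = 0.92 without the 2 farthest mice. Over the 36 pairs r was 0.63 to 0.98 without the 2 farthest mice, 0.52 to 1.0 within the 8 WT mice and 0.71 to 0.99 within the 10 A226Y mice. It was 0.29 to 1.0 within WT without mouse 33 and 0.52 to 0.98 within A226Y without mouse 29. Levels of one mouse come from 1 library, so the pairs share its depth and scaling.

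*Marco* again stood apart. Its 9 pairs had r of 0.33 to 0.57 and rho of 0.23 to 0.48, none with an adjusted permutation p under 0.05 by rho and 4 by r, and r fell to between −0.17 and 0.42 without the 2 farthest mice. Within WT its r with the other markers was −0.63 to −0.24, but −0.07 to 0.62 without mouse 33, and within A226Y it was 0.66 to 0.87, but 0.36 to 0.80 without mouse 29. The negative values within WT thus rested largely on mouse 33, in which *Marco* was lowest and the other 9 markers were highest.

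**Figure D4:**
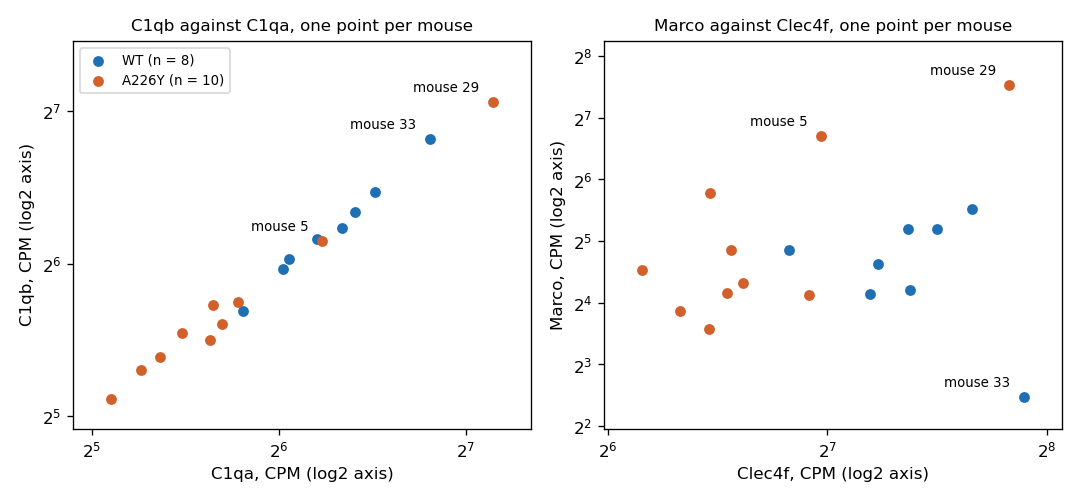
Levels of *C1qb* against *C1qa* (left) and of *Marco* against *Clec4f* (right), in CPM on log2 axes, 1 point per mouse (8 WT, 10 A226Y). The C1q points fall along a line through both genotypes (r = 0.99 after centring on genotype), while *Marco* ranges from 5.53 CPM in WT mouse 33 to 185.4 CPM in A226Y mouse 29, which have similar *Clec4f*.

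The proportions of the markers to each other were then compared, since a difference that all markers share leaves their ratios unchanged. The log2 ratio of 2 markers within a mouse was compared between genotypes for all 45 pairs with the two-sided exact permutation test, and none passed after Benjamini-Hochberg adjustment over the 45. The lowest p was that of *Clec4f* to *C1qb*, with a log2 ratio of 1.17 ± 0.09 (SD, n = 8) in WT and 0.97 ± 0.14 (SD, n = 10) in A226Y (exact permutation p = 0.00363, adjusted p = 0.164), and 6 A226Y mice were below every WT mouse. *Clec4f* to *Csf1r* was 0.83 ± 0.13 in WT and 0.60 ± 0.17 in A226Y (exact permutation p = 0.00816, adjusted p = 0.184). The ratio of *C1qa* to *C1qb*, by contrast, was 0.05 ± 0.04 in WT and 0.02 ± 0.07 in A226Y (exact permutation p = 0.268). *Clec4f* to *Marco*, the pair with the widest difference, was 2.85 ± 1.12 in WT and 1.74 ± 1.0 in A226Y (exact permutation p = 0.0367, adjusted p = 0.253). The mean log2 ratio of *Clec4f* to each other marker was lower in A226Y, with exact permutation p from 0.00363 to 0.367. These ratios share *Clec4f* and are not independent. Without mouse 29 the lowest adjusted p of the 45 pairs was 0.223.

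Divided by exon length, the order of the WT levels was *Cd5l* (97.1 ± 27.0 CPM per kb, SD, n = 8), *C1qa* (75.7 ± 17), *C1qb* (70.0 ± 17.2), *Clec4f* (68.9 ± 15.3), *Vsig4* (43.7 ± 10.7), *C1qc* (38.9 ± 8.9), *Csf1r* (16.5 ± 3.72), *Marco* (13.9 ± 6.73), *Cd68* (13.8 ± 3.08) and *Adgre1* (10.1 ± 2.29). The place of *C1qc* depended on the length used, since its exons span 1931 bases in all and its longest transcript 1203. Per kb of the longest transcript, a length chosen after seeing the data, *C1qc* was at 62.4 ± 14.3 and above *Vsig4* (45.2 ± 11.1) in 8 of 8 WT mice, and *Cd68* (14.1 ± 3.15) was above *Marco* (13.9 ± 6.73) on average. Not all neighbours in this order were distinct. *C1qb* exceeded *Clec4f* in 4 of 8 WT mice but in 10 of 10 A226Y mice, *Csf1r* exceeded *Marco* in 4 of 8 WT and 3 of 10 A226Y mice, and *Marco* exceeded *Cd68* in 5 of 8 WT and 7 of 10 A226Y mice. Genes such as *Adgre1* and *Cd68*, by which macrophages are often counted in tissue sections, were thus among the scarcest of the 10 as RNA.

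Outside the 10 markers, the genes whose genotype-centred level followed the mean of the standardised markers most closely over the 18 mice were, out of 11941 genes that averaged 1 CPM or more, *Itgb2* (rho = 0.98), *AB124611* (0.96), *B430306N03Rik* (0.95), *Ncf1* (0.94), *Sirpa* (0.93), *Myo1f* (0.92), *Folr2* (0.92), *Trpm2* (0.92), *Lgmn* (0.92) and *Lrrc25* (0.92). *Itgb2* encodes the beta chain of leukocyte integrins and *Ncf1* a subunit of the phagocyte NADPH oxidase. The markers themselves had rho of 0.76 (*Vsig4*) to 0.97 (*C1qc*) with this mean, in which they take part, and *Marco* had 0.46.

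Short stretches around the starts of the genes are shown because macrophage promoters are known to be bound by PU.1 and MAF factors. PU.1 recognises GAGGAA, and the half-site of MAF factors is TGCTGA. A link between these words and the shared variation of the markers was not tested. RefSeq promoters (GRCm38.p6, 250 bases before to 50 after the start) were at hand for 7 of the 10 markers, *Marco*, *Cd5l*, *C1qb*, *C1qc*, *Clec4f*, *Cd68* and *Vsig4*. GAGGAA was found on either strand in 6 of these 7, all but *Clec4f*, and in 28.3% of all 32851 promoters of this length. TGCTGA was found in 4 of the 7 (*C1qb*, *Cd5l*, *Clec4f* and *Vsig4*) and in 19.5% of all promoters. In the following 30 bases, 5′ to 3′ on the strand of the gene, capitals mark the word or, where it reads TTCCTC, its reverse complement.
*C1qb*, chr4:136886213-136886242, minus strand: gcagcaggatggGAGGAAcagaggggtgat
*C1qc*, chr4:136893090-136893119, minus strand: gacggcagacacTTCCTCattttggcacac
*Cd5l*, chr3:87357803-87357832, plus strand: cagtcacctcccTTCCTCtggccatgctga
*Cd68*, chr11:69666378-69666407, minus strand: tttcttaccaatGAGGAAagggcttcccat
*Marco*, chr1:120505153-120505182, minus strand: tgaagtgggtcaGAGGAAgatttcctgggg
*Vsig4*, chrX:96293474-96293503, minus strand: ggggaagtgtgtGAGGAAactaggattctg
*Clec4f*, chr6:83656298-83656327, minus strand: gattgcagacccTGCTGAagggggttgggt
The word begins 30 bases before the start in *C1qb* and 225 bases before it in *Cd68*. A single stretch per gene is shown, and TGCTGA is marked in *Clec4f* only. GAGGAA also begins 155 bases before the start in *Vsig4*, and its reverse complement lies 30 bases after the start in *Cd68*. A match is a description of the letters, and binding was not measured in these livers.

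The marker levels were set beside other genes of macrophages and of the other cell types of liver, from lists that were drawn up with earlier results of these data known, and their counts are read against the shares of all tested genes, 7.03% called lower and 7.27% higher with all mice, 10.3% called lower without mouse 29 and 1.24% called lower with 4 surrogate variables. Of 10 further genes typical of Kupffer cells, 1 was called lower and none higher (median of the 10 log2 fold changes, −0.17). That gene was *Fcna*, a ficolin that activates the lectin pathway of complement (log2 fold change −0.37, standard error 0.12, edgeR adjusted p = 0.0446). *Folr2*, a folate receptor of tissue macrophages, was at −0.82 (edgeR adjusted p = 0.07), and *Fcna* lost its call with 4 surrogate variables (−0.19, adjusted p = 0.18), where *Folr2* was called (−0.44, adjusted p = 0.0296). Without mouse 29, 3 of the 10 were called lower (*Fcna*, *Folr2* and *Il18bp*, adjusted p = 0.0033, 0.00163 and 0.00929), with a median of −0.29. With all mice, the haemoglobin scavenger receptor *Cd163* was at 0.00 and the iron exporter *Slc40a1* at −0.06. *Clec1b* was at −0.07, *Timd4* at −0.32 and *Spic* at 0.25 (edgeR adjusted p = 0.712, 0.433 and 0.454). None of these 3 was called without mouse 29 or with 4 surrogate variables. Of 18 genes shared by macrophages of many tissues none was called with all mice (median −0.34; 6 were lower at an unadjusted p under 0.05, against 14.7% of all genes), and 10 were called lower without mouse 29 (median −0.56). With 4 surrogate variables the medians of these lists were −0.08 and −0.06.

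Along the axis on which Kupffer cells depend, 3 of 12 genes were called lower and none higher (median −0.19). *Csf1*, the ligand of CSF1R, was 9.31 CPM in A226Y and 13.6 CPM in WT (log2 fold change −0.54, standard error 0.13, adjusted p = 0.00966 from edgeR). *Spi1*, which encodes PU.1, was 8.0 CPM in A226Y and 12.6 CPM in WT (−0.65, standard error 0.21, adjusted p = 0.045 from edgeR), and *Dok2*, an adaptor of signalling in blood cells, was at −0.63 (adjusted p = 0.0355). The other ligand, *Il34*, was at −0.06, and the macrophage transcription factors *Irf8*, *Maf* and *Zeb2* were at −0.41 (adjusted p = 0.0749), −0.04 and −0.06, none of them called with all mice. Without mouse 29 *Irf8* was called lower (−0.55, adjusted p = 0.00293). Among the partners, targets and inhibitor of C1q, 2 of 7 tested genes were called lower and none higher (median −0.38). Those were the proteases that complete the C1 complex, *C1s1* (log2 fold change −0.50, adjusted p = 0.00563 from edgeR) and *C1ra* (−0.34, adjusted p = 0.0133). Both are made largely by hepatocytes, and their log2 fold changes without mouse 29 were −0.50 and −0.36. Of 11 scavenger receptors and C-type lectins 2 were called lower, *Colec12* (−0.41, adjusted p = 0.00742) and *Clec2d* (−0.46, adjusted p = 0.0267), and the median was −0.04. Without mouse 29, 7 of the 12 genes of the axis, 5 of the 7 around C1q and 3 of the 11 receptors and lectins were called lower, and the medians were −0.36, −0.49 and −0.20. With 4 surrogate variables as covariates 1, 0 and 1 of them were called lower, *Spi1* (−0.40, adjusted p = 0.0219) and *Colec12* (−0.36, adjusted p = 0.047), and the medians were −0.17, −0.11 and 0.11.

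Genes of monocyte-derived and lipid-associated macrophages (11 tested, median −0.27) and inflammatory mediators of macrophages (7 tested, median −0.26) had no call in either direction. At an unadjusted p under 0.05, 2 of the former were higher and none lower, *Gpnmb* (0.82, edgeR adjusted p = 0.0644) and *Cd9* (0.52, edgeR adjusted p = 0.071), against 14.9% of all genes higher. Without mouse 29, 1 of the former was called lower (*Plac8*, −0.67, edgeR adjusted p = 0.027) and none of the latter, and the medians were −0.51 (10 tested) and −0.31 (7 tested). With 4 surrogate variables the medians were 0.13 and 0.05. *Tnf*, with at most 12 counts in a mouse, and *Il1b* were low in both groups, at 0.22 and 2.23 CPM in A226Y and 0.307 and 2.56 CPM in WT.

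Among other cell types, dendritic cell markers had 4 of 9 tested genes called lower and a median of −0.61. The 4 were the antigen presentation genes *H2-Ab1* (−0.88, adjusted p = 0.0132), *H2-Eb1* (−0.88, adjusted p = 0.0125), *Cd74* (−0.83, adjusted p = 0.0112) and *H2-Aa* (−0.82, adjusted p = 0.0138, all edgeR), which macrophages and B cells also express, while *Xcr1*, *Clec9a*, *Flt3* and *Siglech*, which define dendritic cells, were at −0.61, 0.09, −0.13 and −0.33 with no call (at most 21, 167, 38 and 16 counts in a mouse). The summed level of the list, nearly all of it from the 4 antigen presentation genes, was 84.9 to 235.3 CPM in A226Y and 142.2 to 440.6 CPM in WT, the highest being WT mouse 33, and with 4 surrogate variables none was called. Markers of T and NK cells (9 tested, median −0.42, summed 4.22 to 11.9 CPM in A226Y and 5.99 to 15.8 in WT), B and plasma cells (6 tested, −0.31, 11.4 to 44.3 and 9.24 to 95.5 CPM), red blood cells (5 tested, −0.45, 163.8 to 422.0 and 207.7 to 764.2 CPM) and neutrophils (4 tested, 0.72, 4.06 to 65.2 and 4.06 to 27.4 CPM) had no call. The highest WT sum of each of these 4 lists was that of WT mouse 33. For B and plasma cells the median sum was 14.3 CPM in A226Y and 13.1 CPM in WT. The neutrophil sum of 65.2 CPM was that of mouse 29, and without mouse 29 the neutrophil median was −0.26. In that fit 1 T and NK cell gene, *Nkg7*, was called lower (−0.82, edgeR adjusted p = 0.0411; median of the list −0.52), and no gene of the B and plasma cell (median −0.48), red blood cell (−0.58) or neutrophil lists was. With 4 surrogate variables the medians were −0.03 for dendritic cells, −0.07 for T and NK cells, 0.34 for B and plasma cells, −0.32 for red blood cells and 0.67 for neutrophils. Of the sinusoidal endothelial markers, whose cells border the same sinusoids, none of 10 was called (median −0.01, summed 437.1 to 649.2 CPM in A226Y and 432.8 to 599.5 in WT). Stellate cell markers had 3 of 10 called lower (*Col1a1* −0.77, *Col3a1* −0.60 and *Colec11* −0.30, median −0.11, summed 544.3 to 627.4 and 509.2 to 703.3 CPM), cholangiocyte markers none of 5 (median 0.20, 17.5 to 30.9 and 13.5 to 31.3 CPM), and hepatocyte markers 3 of 10 higher (*Tat* 0.85, *Cps1* 0.55 and *Apob* 0.29) and 2 lower (*Asgr1* −0.31 and *Fah* −0.24, median 0.09, 80530.7 to 152667.7 and 91239.5 to 178102.6 CPM). With 4 surrogate variables no stellate or hepatocyte marker was called, and the medians were −0.11 for stellate cells, −0.02 for hepatocytes and 0.12 for sinusoidal endothelium. No gene of these lists that the tables hold was at 0 in every mouse, and the part of these cell types in the levels of the 10 markers was not tested.

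**Figure D5:**
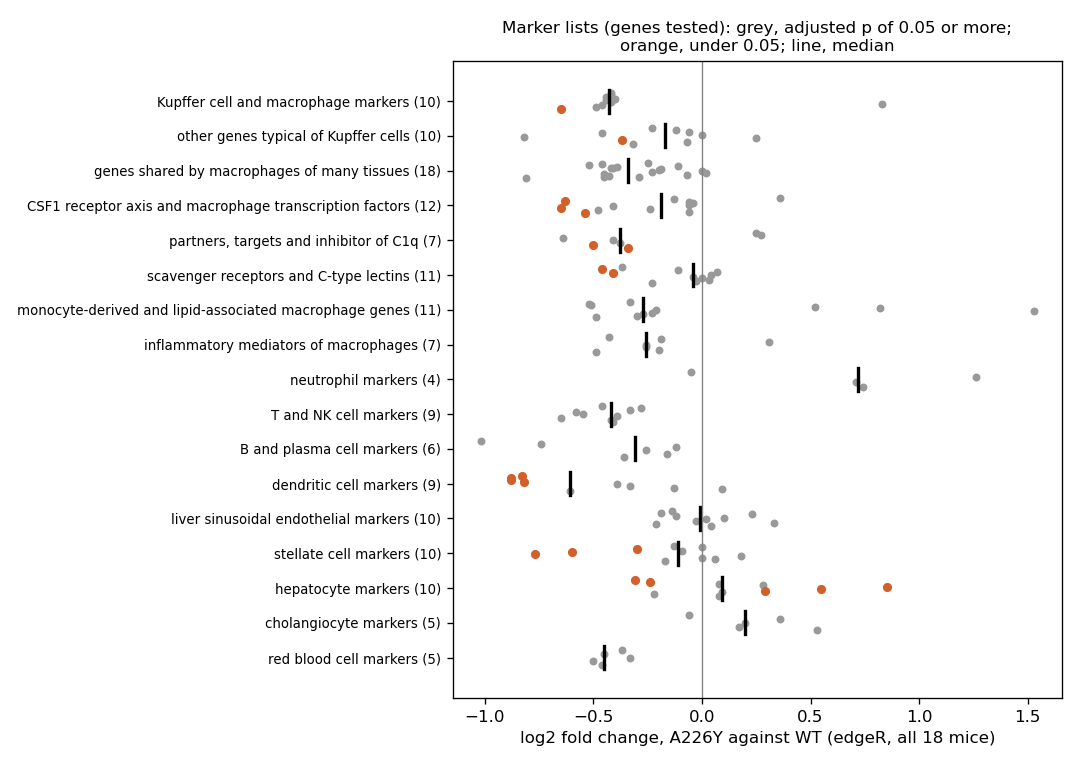
Log2 fold change of A226Y against WT (edgeR, all 18 mice) of the tested genes of each list, with the number tested in parentheses; grey points have an adjusted p of 0.05 or more, orange points under 0.05, and black lines are medians. The 10 markers gather around −0.43 with *Marco* alone at 0.83, while sinusoidal endothelial markers lie around −0.01.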

How the data were processed

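Liver RNA of 10 A226Y and 8 WT mice was sequenced, with 1 library per mouse. The authors deposited whole-number counts per Ensembl gene and mouse (22524 genes), which were not normalized. The methods name RSEM with Ensembl, whereas the submitters' processing notes name fastp, STAR, featureCounts and GRCm38, so the counting tool is uncertain, as is its use of strand. Symbols and positions (22214 genes) came from GENCODE M21, a GRCm38 annotation. Genotype and animal number were taken from the labels, and p-values measure the spread between animals. No pair of mice of one genotype agreed within sampling noise (chi-square per degree of freedom at least 19.2).

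A gene was tested if 50% or more of the mice of either genotype had 10 counts or more (13353 genes), with edgeR 4.0.16 in R 4.3.3 (TMM scaling, quasi-likelihood test, no covariates, Benjamini-Hochberg adjustment over all tested genes). Which edgeR test the study used is not given in the sources used here. Log2 CPM (prior count 2) was used for exact permutation tests, ratios and correlations, computed in numpy 2.4.6 with ranks from scipy 1.17.1. The exact test was checked against that of scipy. Total counts were at least 23850565 and the 10 markers had at least 158 counts in each mouse, but low genes of the lists had far fewer (*Tnf* at most 12). The steps were tested on simulated counts. Alternatives were RLE, upper-quartile and library-size scaling, other filters, DESeq2 1.42.0, limma-voom 3.58.1, 4 surrogate variables (sva 3.50.0), offsets on transcript length or GC content (lowess span 0.3), a prior count of 0.5, and leaving out each mouse.

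The 10 markers and all lists were chosen with earlier results of these data known. Named genes are the 10 markers and *Rps2*, from each other list up to 4 called genes of largest absolute log2 fold change, and the 10 genes most like the markers. Other genes named with a value, such as *Folr2*, *Il18bp*, *Cd163*, *Slc40a1*, *Clec1b*, *Timd4*, *Spic*, *Il34*, *Irf8*, *Gpnmb*, *Cd9*, *Plac8*, *Nkg7*, *Maf*, *Zeb2*, *Tnf*, *Il1b*, *Xcr1*, *Clec9a*, *Flt3*, *Siglech* and *Fah*, were chosen after their values were seen. *C4a* and *Clec7a* were not matched to the tables. The other genes of the lists are given by counts only.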

Additional observations from a re-analysis of the deposited data

Results flagged for a closer look

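Of 22 groups of values (the 10 markers and *Rps2* in each genotype), 7 held a mouse whose gap to the nearest other mouse, as a share of the whole range of the group, passed Dixon's 95% critical value, 0.466 for 10 mice and 0.526 for 8; chance does so in about 1 of 20 groups, and groups of one mouse are not independent. In A226Y, all 6 were mouse 29. Its level was 227.2 CPM for *Clec4f* (next 125.3, gap 0.65 of the range), 373.8 CPM for *Cd5l* (next 222.3, gap 0.50), 185.4 CPM for *Marco* (next 104.5, gap 0.47), 141.3 CPM for *C1qa* (next 75.1, gap 0.62), 133.7 CPM for *C1qb* (next 70.8, gap 0.63) and 138.9 CPM for *C1qc* (next 70.9, gap 0.65). In WT it was mouse 33 for *Csf1r*, with 143.9 CPM (gap 0.62).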

How the results depend on the processing

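The count of called markers was 1 of 10 with all mice. It was 2 with DESeq2 (*Clec4f* and *Vsig4*, where 8.77% of all genes were lower), and 8 without both A226Y mouse 29 and WT mouse 33 (an alternative chosen after seeing the data). It ranged from 0 to 8 when single mice were left out, with 0 without WT mouse 14 (4.67% of all genes lower), 2 without WT mouse 24 (5.02%), 3 without A226Y mouse 5 (7.43%), 3 without WT mouse 6 (9.27%) and 8 without A226Y mouse 29 (10.3%). The count of all genes called was 1910, 285 with surrogate variables (234 shared with the 1910), and 1255 to 2560 when single mice were left out; the cause was not tested. Markers past an exact permutation p of 0.05 numbered 7, 4 with library size only and 9 without A226Y mouse 29. The log2 fold change of *Adgre1* turned to 0.04 with surrogate variables. No ratio of 2 markers passed in any setting tried, *Rps2* was lower in all (log2 fold change −0.90 to −0.66) of these, and 36 pairs of markers were correlated by rho, or 37 with library size only. Scaling by library size only gave 67.9% of called genes as higher, against 50.8%, with the median of all genes at 0.039. No paired analysis was possible because the animal numbers differ between the groups, so that A226Y and WT mice share none.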
